A study of Pimephales promelas with 15 samples.

Results

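The livers of male fathead minnows held in lake stormwater were compared with those of males held in treated wastewater. The members are the 4 arrays titled as stormwater and the 4 titled as wastewater, 8 of the 15 arrays in the series. The fathead minnow (Pimephales promelas) is a small freshwater fish that is widely used in aquatic toxicology. All fish were mature males exposed for 48 h, unfed, with 4 fish in 25 L of water per 40 L aquarium and 4 aquaria per water. The stormwater fish were held in water from a lake, and the wastewater fish in effluent of a treatment plant that is reused for landscape irrigation. The other arrays, 4 from stream water below a treatment plant and 3 from carbon-filtered, dechlorinated tap water (control), took no part in the tests and are given only as reference levels. Each one-colour array held liver RNA of 1 fish. Age, strain and the aquarium of each fish are not given in the labels, so fish that shared an aquarium could not be recognised and p-values measure the spread between these fish.

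The liver secretes most plasma proteins, stores and mobilises lipid and sugar, and is the main site where foreign compounds are oxidised, conjugated and excreted. In egg-laying fish it also makes the yolk precursor vitellogenin under the control of oestrogen, and male fish that meet oestrogens in effluent can switch this synthesis on. Effluents and urban runoff carry different mixtures of hormones, drugs, metals and hydrocarbons, and the comparison asks whether livers tell these mixtures apart after a short exposure. The arrays' probes carry identifiers but no gene names: of the 15208 non-control probes, 11862 are named after contigs, 3309 after sequence numbers and 37 otherwise, and 0 matched the gene table of the species. The probes are therefore given by their identifiers, no gene group such as the vitellogenins could be followed, and the labelled tissue could not be checked against liver markers.

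A level is the log2 signal of a probe relative to the 75th percentile of its array, and a difference is stormwater minus wastewater on that log2 scale. A probe was called detected where the scanner software marked it as well above background, and the test covered the 10736 probes that 3 or more of the 8 arrays detected. Stormwater replicate 2 stood apart. Across probes, which are not independent replicates, it correlated at 0.787 to 0.793 with the other stormwater arrays and at 0.700 to 0.767 with the wastewater arrays. The other 3 stormwater arrays correlated at 0.881 to 0.940 with each other, the wastewater arrays at 0.873 to 0.944 with each other, and the 12 pairs across the waters at 0.866 to 0.956. With that array left out, the correlations within a water and across the waters covered overlapping ranges. The main counts, the array measures and the differences of the probes described, singly or as a range, are also given without it.

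Few transcripts passed the test between stormwater and wastewater livers, and those that did were higher after stormwater. In limma's test over the 8 arrays, 18 probes passed at an adjusted p of 0.05, all 18 higher after stormwater, which is 0.168% of the probes tested. No probe passed in the other direction (0% of those tested), and 287 had an unadjusted limma p under 0.05 (2.67%). All 18 were detected in 4 of 4 stormwater livers, as were the 7565 tested probes that all 8 arrays detected. On none of the 18 did the stormwater and wastewater levels overlap. Over all probes tested, 436 (4.06%) were higher after stormwater without overlap. The 18 were chosen by p on the same 8 arrays, so their lack of overlap is no separate support. In 14 of the 18 no wastewater liver was detected, so only a lower bound of the ratio can be given, and these 14 entered the test through the stormwater arrays alone. That filter let in 293 probes detected on 3 or 4 stormwater arrays and no wastewater array, and 2 the other way round, so the direction of the calls is not independent of it. The bounds ran from 1.28-fold to 12.8-fold. They are ratios of observed means without an error, and they take the weakest detected signal of each array as its limit. Detection is called per spot, and a brighter spot can go undetected. UF_Ppr_AF_114651 was undetected in wastewater replicate 2 at -3.79, where the weakest detected signal was -4.01. The bounds, printed below as "at least", are therefore approximate. They also hold only for the scanner software's background correction: with the normexp background the fitted ratio of all 14 was below the bound printed here. A limma p printed beside a bound tests the fitted difference, in which undetected signals enter as recorded, and not the bound itself.

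**Figure D1:**
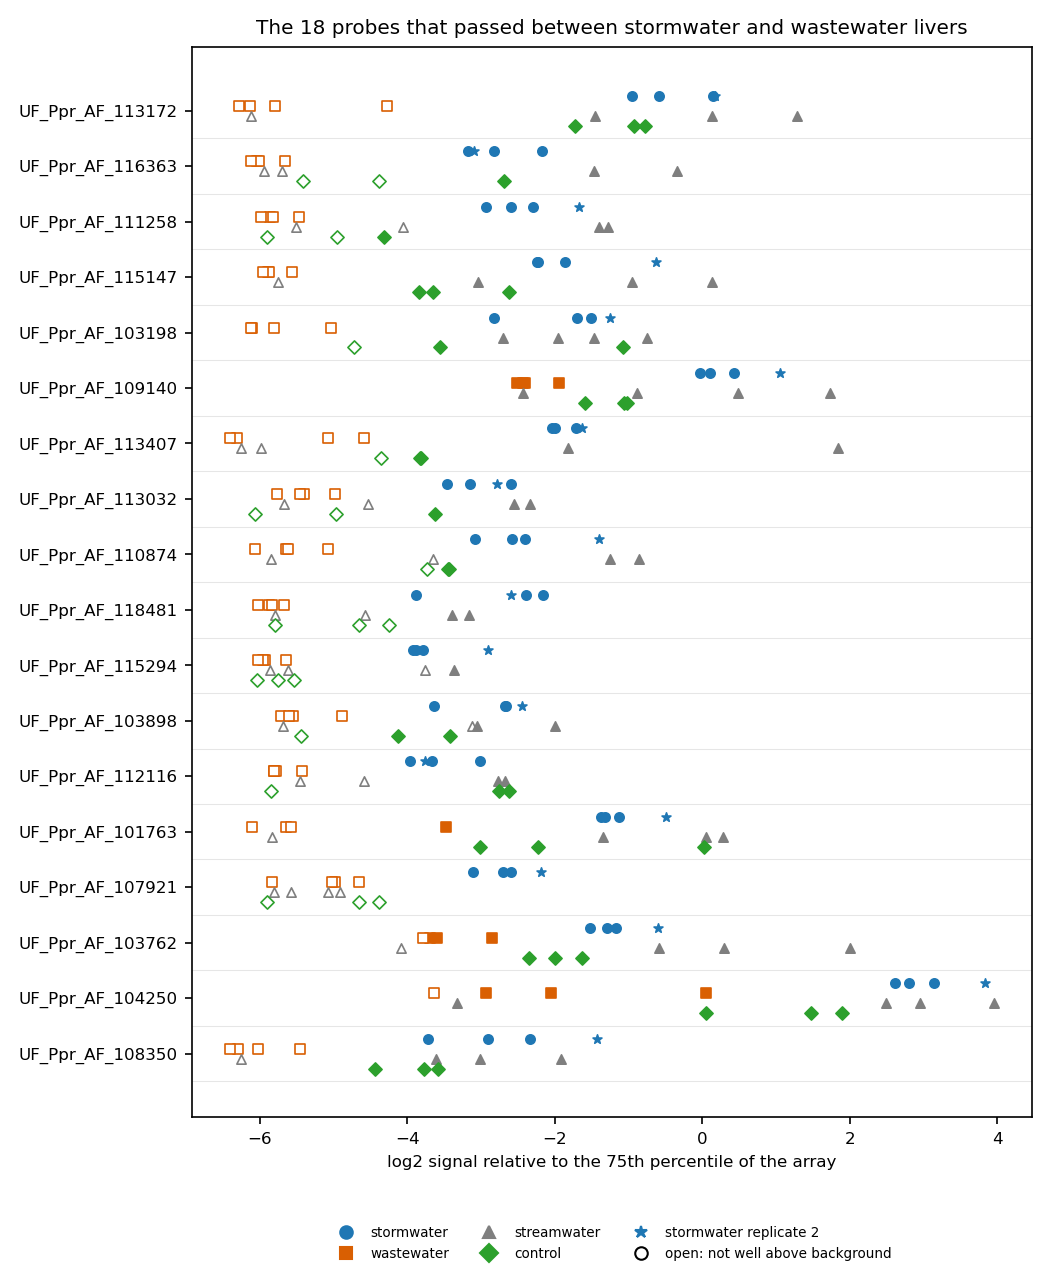
Levels (log2 signal relative to the 75th percentile of the array, horizontal axis) of the 18 passing probes (rows, lowest p at the top) in every liver, with open symbols for probes that were not detected. The stormwater livers lie to the right of the wastewater livers in every row, and most wastewater symbols are open.

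The probe with the largest bound was UF_Ppr_AF_113172. Its level was -0.95, 0.17, 0.15 and -0.59 in stormwater replicates 1 to 4, and -4.27, -6.14, -6.29 and -5.80 in wastewater replicates 1 to 4, where it was not detected. Every stormwater liver lay far above every wastewater liver, and the stormwater level was higher by at least 12.8-fold. The fitted log2 difference, with the undetected signals as recorded, was 5.32 (SE 0.50, limma adjusted p = 0.00944). UF_Ppr_AF_115147 was at -2.23, -0.63, -1.86 and -2.24 after stormwater and between -5.96 and -5.57 after wastewater, at least 4.72-fold higher (limma adjusted p = 0.00944). UF_Ppr_AF_103198 was at -2.83, -1.24, -1.51 and -1.70 after stormwater and between -6.12 and -5.03 after wastewater, at least 4.46-fold higher (limma adjusted p = 0.0175). On all 3 probes the 4 wastewater livers lay below the level at which their arrays began to detect probes.

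The other bounds were smaller. UF_Ppr_AF_113407 had a bound of 4.39-fold, with levels of -1.85 ± 0.20 (SD, n = 4) against -5.59 ± 0.90 (SD, n = 4) after wastewater (limma adjusted p = 0.0287). UF_Ppr_AF_116363, UF_Ppr_AF_111258 and UF_Ppr_AF_110874 were at least 2.23-fold, 3.04-fold and 3.05-fold higher (limma adjusted p = 0.00944, 0.00944 and 0.0332). The bounds of UF_Ppr_AF_118481, UF_Ppr_AF_103898, UF_Ppr_AF_113032 and UF_Ppr_AF_115294 were 2.33-fold, 2.18-fold, 1.98-fold and 1.28-fold. For UF_Ppr_AF_115294 the stormwater mean was -3.62, and the wastewater livers lay between -6.03 and -5.64. The weakest signals that counted as detected ran from -5.28 to -4.35 on the stormwater arrays and from -4.15 to -3.73 on the wastewater arrays, and the latter set its bound.

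For 4 of the 18 probes at least 1 wastewater liver was detected. Only UF_Ppr_AF_109140 was detected on all 8 arrays, so that its ratio is measured on both sides. It stood at 0.10, 1.06, 0.44 and -0.03 in stormwater replicates 1 to 4 and at -1.94, -2.40, -2.43 and -2.51 in wastewater replicates 1 to 4. The log2 difference was 2.71 (SE 0.31, limma adjusted p = 0.0281), a 6.55-fold higher mean after stormwater, and the gap between the groups was wider than the range within either.

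Another 6 passing probes fell outside the naming rule and are named after their values were seen. UF_Ppr_AF_104250 was at 3.15, 3.83, 2.80 and 2.62 after stormwater and at 0.05, -2.05, -2.94 and -3.64 after wastewater, where the lowest was not detected. The log2 difference was 5.24 (SE 0.74, limma adjusted p = 0.0453), and the wastewater livers varied much more (SD 1.60) than the stormwater livers (SD 0.53). UF_Ppr_AF_103762, detected in 3 of 4 wastewater livers, differed by 2.34 (SE 0.32, limma adjusted p = 0.0412), and UF_Ppr_AF_101763 by 4.12 (SE 0.56, limma adjusted p = 0.0404). UF_Ppr_AF_101763 was detected in 1 of 4 wastewater livers (-3.48), and the signals of the other 3, between -6.10 and -5.57, were not above background, so its difference is no measured ratio. The last 3, UF_Ppr_AF_112116, UF_Ppr_AF_107921 and UF_Ppr_AF_108350, were not detected after wastewater and were at least 1.30-fold, 2.52-fold and 2.61-fold higher after stormwater.

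The 18 probes did not split the remaining livers by water. Their median level per array was -2.59, -1.53, -2.37 and -2.27 in stormwater replicates 1 to 4 and between -5.97 and -5.52 in the wastewater livers. The controls lay between these at -3.99, -3.74 and -3.53. Streamwater livers covered the whole range, at -3.63 and -1.47 in replicates 1 and 2 and at -5.78 and -0.80 in replicates 3 and 4. Streamwater replicate 3 was thus as low as the wastewater livers, and it lay below all 4 stormwater livers on 17 of the 18 probes. Streamwater replicate 4 lay above all 4 wastewater livers on 17 of the 18 and streamwater replicate 2 also on 17, and the medians of both lay above those of all 4 stormwater livers. The probes were chosen for their difference between stormwater and wastewater, so these are levels only, with no test.

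Single probes showed the same order and some exceptions. UF_Ppr_AF_113172 was detected in all 3 controls, at -0.92, -1.73 and -0.77, close to stormwater levels, and was not detected in streamwater replicate 3 (-6.11). For UF_Ppr_AF_109140 the controls lay between the waters, at -1.02, -1.59 and -1.06. UF_Ppr_AF_118481 and UF_Ppr_AF_115294 were detected in no control liver, and UF_Ppr_AF_107921 in no control and no streamwater liver, so for that probe the stormwater livers alone were above background. UF_Ppr_AF_103198 was detected in 4 of 4 streamwater livers and 2 of 3 controls.

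The detection and brightness of the arrays themselves were also compared between the waters. Stormwater arrays detected 64.2%, 77.1%, 67.1% and 70.9% of all probes in replicates 1 to 4, and wastewater arrays 64.7%, 60.6%, 61.5% and 58.6%. The groups overlapped in 1 pair, wastewater replicate 1 lying above stormwater replicate 1, and the mean shares of 69.8% ± 5.58 (SD, n = 4) and 61.3% ± 2.55 (SD, n = 4) were not shown to differ (two-sided exact permutation p = 0.0571, 0.0857 after Benjamini-Hochberg adjustment over 2 array measures). The 75th percentile of the signal was 2697, 3981, 2217 and 2134 intensity units on the stormwater arrays and 2447, 1777, 1762 and 1393 on the wastewater arrays. These groups overlapped too, and their difference was not shown either (two-sided exact permutation p = 0.0857, adjusted 0.0857). Without stormwater replicate 2 the stormwater share was 67.4% ± 3.4 (SD, n = 3), and the exact permutation p was 0.0857 for the share and 0.171 for the 75th percentile. The smallest p that 4 arrays against 4, or 3 against 4, allow is 0.0286. Of the 18 passing probes, 9 fell in the dimmest decile of the probes tested and 16 in the dimmest 4 deciles. Among the 7565 probes detected on all 8 arrays, fitted alone, 0 passed (0% of them, lowest limma adjusted p = 0.0584), with 393 higher (5.19%) and 276 lower (3.65%) at an unadjusted p under 0.05. The part of the arrays' detection and brightness in the 18 calls was not tested.

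**Figure D2:**
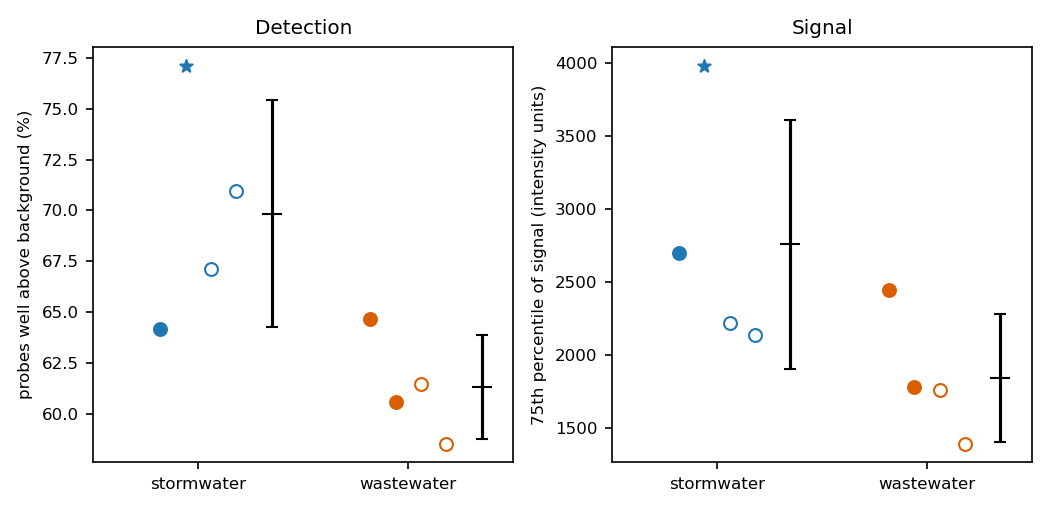
Share of probes well above background (left, percent) and 75th percentile of the signal (right, intensity units) for each liver, with mean and SD as bars, filled symbols for slide 1, open symbols for slide 2 and a star for stormwater replicate 2. The highest value of both measures is stormwater replicate 2, and the lowest is wastewater replicate 4. Neither vertical axis starts at 0.

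The number of passing probes fell under several other fits. Each slide held 2 livers of each water. All 18 probes had higher means after stormwater within each slide, which the lack of overlap between the waters fixed beforehand. With slide as a block 20 probes passed, 16 of them among the 18. Comparing 2 livers against 2 within either slide, with the spread estimated over all 8 arrays, 0 passed. With the replicate number as a block, which leaves 3 residual degrees of freedom, 0 passed (lowest limma adjusted p = 0.154). At an unadjusted limma p under 0.05, 690 probes were higher and 429 lower in that fit. The main test gave 594 (5.53%) and 287 (2.67%) of the same 10736 probes. Leaving out wastewater replicate 3 or wastewater replicate 4 also left 0 passing probes (lowest limma adjusted p = 0.0607 and 0.0606). Of the same 10736 probes, 490 and 442 were then higher and 267 and 208 lower at an unadjusted limma p under 0.05. Dropping stormwater replicate 1, 2, 3 or 4 gave 8, 9, 6 and 7 passing probes, of which 6, 8, 4 and 6 were among the 18. Dropping wastewater replicate 1 gave 14, with 10 among the 18, and dropping wastewater replicate 2 gave 7, with 5 among the 18. Without stormwater replicate 4, 1 passing probe was lower after stormwater, UF_Ppr_AF_119087 (log2 difference -9.87, limma adjusted p = 0.0131). Without wastewater replicate 2, 1 was lower too, UF_Ppr_AF_108364 (log2 difference -7.57, limma adjusted p = 0.0036). With the normexp background 0 passed (lowest limma adjusted p = 0.144), and 16 of the 18 kept their direction with smaller differences. The median log2 difference of the 18 went from 3.18 to 0.76. UF_Ppr_AF_113172 went from 5.32 to 2.71, UF_Ppr_AF_111258 from 3.41 to 0.73 and UF_Ppr_AF_103898 from 2.59 to 0.07, while UF_Ppr_AF_104250 went from 5.24 to 4.54 and UF_Ppr_AF_109140 from 2.71 to 2.10. When all 15 arrays shared one estimate of the spread, 0 passed (lowest limma adjusted p = 0.142). In that fit 749 of the 10736 probes tested had an unadjusted limma p under 0.05, among them all 18. The 18 were chosen by p on 8 of these arrays and had the same differences in both fits, so this is no separate support.

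Over all probes tested, 594 were higher after stormwater at an unadjusted limma p under 0.05 (5.53% of the probes tested) and 287 were lower (2.67%). The levels of the waters did not overlap in 436 probes that were higher (4.06%) and 254 that were lower (2.37%). The median log2 difference of all probes was -0.10. Centring the arrays on their median in place of the 75th percentile moved it to -0.04 and gave 678 higher and 200 lower of the same 10736 probes. With normexp background correction 373 of the same 10736 probes were higher and 1926 lower, around a median of -0.32. That setting started from other signal columns and added an offset of 50 intensity units before scaling. The part of the offset in its counts was not tested. Without the filter on dim probes 666 of all 15208 non-control probes were higher and 1673 lower. The probes added there were detected on fewer than 3 arrays, so most of their signals were not above background. The larger number of higher probes thus held under both centrings, and the balance turned under the normexp background. It also turned without the filter, but over this larger set of probes. That count therefore does not show transcripts to be lower after stormwater. The 95% confidence interval of a log2 difference reached a median of 0.94 to either side, which is 1.92-fold.

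**Figure D3:**
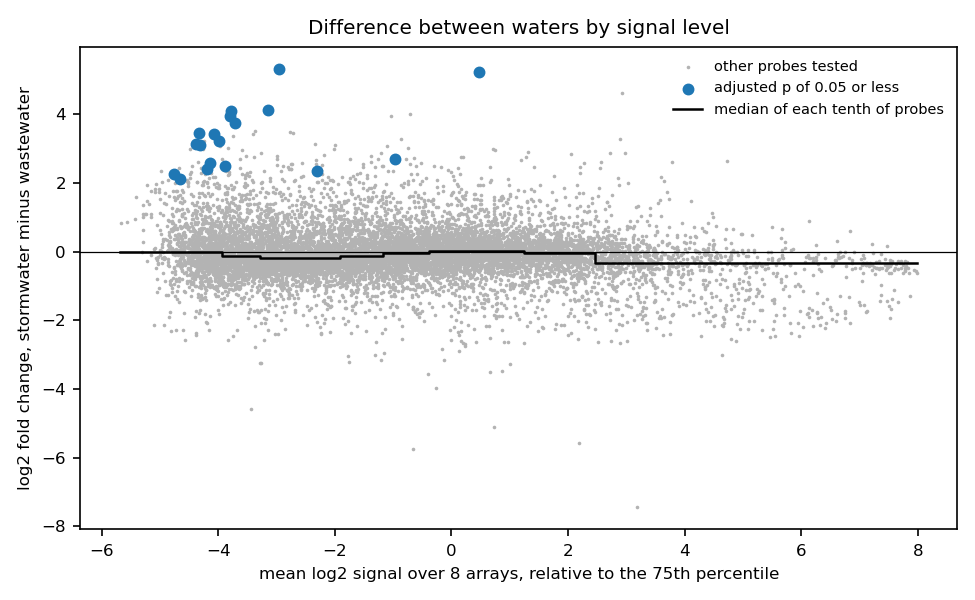
Log2 difference, stormwater minus wastewater, of the 10736 probes tested (vertical axis) against their mean log2 level over the 8 arrays (horizontal axis), with passing probes in blue and the median of each decile of the probes as a line. The 18 passing probes lie above 2 and mostly at low levels, and the median of the brightest decile lies at -0.33.

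In the main test no transcript was shown to be lower after stormwater, and the 6 non-overlapping probes of lowest p in that direction are given by value. UF_Ppr_AF_116095 was at -1.92, -3.04, -0.67 and -1.21 in stormwater replicates 1 to 4 and at 0.96, 2.38, 1.54 and 0.90 in wastewater replicates 1 to 4, with all wastewater livers above all stormwater livers. Its log2 difference was -3.15 (SE 0.56, limma adjusted p = 0.0947), and the controls were at -0.49, -0.77 and 0.97. With array weights the difference of UF_Ppr_AF_116095 was -2.66 and passed (limma adjusted p = 0.0359). UF_Ppr_AF_101920 was at -0.76, -2.35, 0.79 and -0.21 after stormwater and at 1.72, 3.23, 2.24 and 3.35 after wastewater, a log2 difference of -3.27 (SE 0.67, limma adjusted p = 0.145). Its controls, at 2.74, 4.59 and 2.01, lay above all stormwater livers. Without stormwater replicate 2 the differences were -2.71 for UF_Ppr_AF_116095 and -2.70 for UF_Ppr_AF_101920 (limma adjusted p = 0.137 and 0.202).

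The other 4 differed less. UF_Ppr_AF_100521 differed by -1.60 (SE 0.35, limma adjusted p = 0.171), with stormwater livers between -3.12 and -1.84 and wastewater livers between -1.15 and -0.45. UF_Ppr_AF_105833 differed by -2.19 (SE 0.52, limma adjusted p = 0.216), and wastewater replicate 3 (1.86) lay next to the highest stormwater liver (1.65), well below the other wastewater livers. UF_Ppr_AF_105482 differed by -2.02 (SE 0.48, limma adjusted p = 0.223). UF_Ppr_AF_114651 was detected in no stormwater liver and in 3 of 4 wastewater livers, with a bound of 2.67-fold lower after stormwater (limma adjusted p = 0.216). Its wastewater mean includes wastewater replicate 2 (-3.79), which was not detected, so that bound is approximate. Without stormwater replicate 2 UF_Ppr_AF_100521, UF_Ppr_AF_105833 and UF_Ppr_AF_105482 differed by -1.49, -2.02 and -1.62. The fitted difference of UF_Ppr_AF_114651 without that array was -2.11, and no bound was computed for it. Without that array limma's adjusted p of the 4 probes ran from 0.330 to 0.440.

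Among probes detected in all 8 livers, the 5 with the largest rise in level and no overlap are shown because their ratios are measured on both sides. UF_Ppr_AF_118353 was at 4.50, 5.65, 3.66 and 4.34 after stormwater and at 3.29, -0.91, 1.22 and 1.39 after wastewater. Wastewater replicate 1 nearly reached the stormwater range, and the log2 difference of 3.29 (SE 0.82) did not pass (limma adjusted p = 0.251). UF_Ppr_AF_104306 differed by 3.06 (SE 0.51, limma adjusted p = 0.0875), UF_Ppr_AF_117690 by 2.97 (SE 0.55, limma adjusted p = 0.0947) and UF_Ppr_AF_111262 by 2.76 (SE 0.51, limma adjusted p = 0.0947). UF_Ppr_AF_116204 differed by 2.76 (SE 1.00, limma adjusted p = 0.530), with stormwater replicate 2 at 5.23 and the other stormwater livers between 1.32 and 2.06. Without stormwater replicate 2 the difference of UF_Ppr_AF_116204 was 1.90 (SE 0.80, limma adjusted p = 0.800), and those of UF_Ppr_AF_118353, UF_Ppr_AF_104306, UF_Ppr_AF_117690 and UF_Ppr_AF_111262 were 2.92, 2.95, 2.52 and 2.44 (limma adjusted p from 0.145 to 0.510). Over the 7565 probes detected in all 8 livers, 288 were higher after stormwater without overlap (3.81%) and 227 lower (3%).

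**Figure D4:**
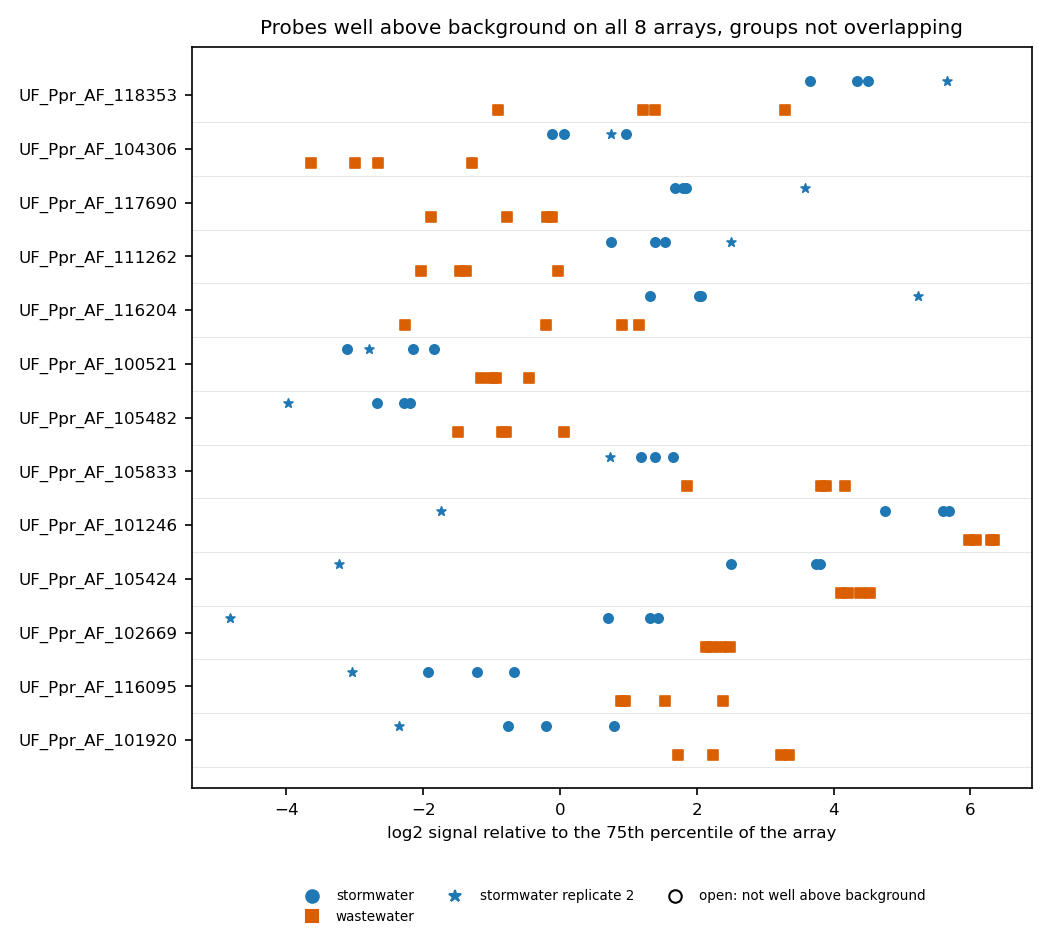
Levels (log2 signal relative to the 75th percentile of the array) in the 8 livers for probes detected on all of them whose waters did not overlap, ordered by their difference. For the probes UF_Ppr_AF_101246, UF_Ppr_AF_105424 and UF_Ppr_AF_102669 the star of stormwater replicate 2 lies far to the left of the other stormwater livers.

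Of the 5 probes with the lowest differences in that set, UF_Ppr_AF_101920 and UF_Ppr_AF_116095 are given above. The size of the difference in the other 3, UF_Ppr_AF_102669, UF_Ppr_AF_105424 and UF_Ppr_AF_101246, rested on stormwater replicate 2. UF_Ppr_AF_101246 was at 5.60, -1.73, 4.75 and 5.69 in stormwater replicates 1 to 4 and between 5.98 and 6.34 after wastewater, and its log2 difference of -2.60 (SE 1.51) became -0.83 (SE 0.30) without stormwater replicate 2. UF_Ppr_AF_102669 moved from -2.64 to -1.14 and UF_Ppr_AF_105424 from -2.61 to -0.96 (limma adjusted p without that array from 0.330 to 0.713 for the 3 probes). Streamwater replicate 4 was low on all 3 probes too, at -4.93 on UF_Ppr_AF_105424, -2.68 on UF_Ppr_AF_101246 and -2.30 on UF_Ppr_AF_102669. In the same order of probes, the other streamwater livers were at 2.5 to 3.9, 5.4 to 6.1 and 0.2 to 2.2. The remaining 3 stormwater livers lay below all wastewater livers, since these probes were chosen for having no overlap.

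None of the 5 brightest probes was shown to differ. UF_Ppr_AF_103403, UF_Ppr_AF_117718, UF_Ppr_AF_109733, UF_Ppr_AF_102718 and UF_Ppr_AF_116431 had mean levels between 7.21 and 7.69 after stormwater and between 8.16 and 8.51 after wastewater. Their log2 differences ran from -1.30 to -0.53, none passed (limma adjusted p from 0.621 to 0.678), and the sign of UF_Ppr_AF_109733 turned with quantile normalization and with the authors' values, as did those of UF_Ppr_AF_103403, UF_Ppr_AF_117718 and UF_Ppr_AF_116431 with the authors' values. UF_Ppr_AF_103403 and UF_Ppr_AF_102718 were saturated on 3 of the 8 arrays each, and UF_Ppr_AF_117718 and UF_Ppr_AF_116431 on 1 each. Saturated spots entered at the value recorded, so the differences of these 4 probes are approximate. UF_Ppr_AF_102718 was at 4.54 in stormwater replicate 2 and between 7.94 and 8.72 in the other 7 livers, and without that array its difference was -0.41. Those of the other 4 without that array ran from -0.45 to -0.33. On UF_Ppr_AF_102718 streamwater replicate 4 was also low, at 3.10 against 8.12 to 8.68 in the other streamwater livers.

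Detection alone was also counted. On 68 of the 10736 probes (0.633%) detection was complete after stormwater and absent after wastewater, and on 0 (0%) the reverse held. The 68 include the 14 passing probes without a wastewater level. All of them were chosen for being detected after stormwater, whose arrays detected more of all probes, so their differences are a description. Without stormwater replicate 2 the count was 72. The lower bound of the ratio was at least 1 for 65 of them and at least 2 for 26, with a highest value of 12.8-fold. The 5 largest belonged to UF_Ppr_AF_113172, UF_Ppr_AF_115147, UF_Ppr_AF_103198, UF_Ppr_AF_113407 and UF_Ppr_AF_107244. UF_Ppr_AF_107244 was at -0.99, -2.13, -3.60 and -1.56 after stormwater and between -6.05 and -4.80 after wastewater, at least 3.76-fold higher without passing (limma adjusted p = 0.0865), and at least 3.81-fold without stormwater replicate 2.

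The same 68 probes were detected unevenly in the livers that took no part in choosing them. Streamwater replicates 1 to 4 detected 18, 49, 8 and 61 of the 68, and the controls 15, 54 and 50. In all, 13 of the 68 were detected in all 3 controls, 8 in no control, 2 in all 4 streamwater livers and 1 in none of these 7 livers. Shares of all probes detected on these arrays ran from 60.2% in streamwater replicate 3 to 75.2% in control replicate 2. Streamwater replicate 4, which detected 64.5% of all probes, detected the most of the 68, and control replicate 1 detected 65.8% of all probes and 15 of the 68.

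Leaving out stormwater replicate 2 shortened the list. The probes tested stayed those chosen over all 8 arrays. With 3 stormwater livers against 4 wastewater livers 9 probes passed, all higher after stormwater (0.0838% of the probes tested), and 0 lower (0%), with 449 higher (4.18%) and 214 lower (1.99%) at an unadjusted limma p under 0.05. Of the 9, 8 were among the 18, namely UF_Ppr_AF_113172, UF_Ppr_AF_116363, UF_Ppr_AF_111258, UF_Ppr_AF_115147, UF_Ppr_AF_103198, UF_Ppr_AF_109140, UF_Ppr_AF_110874 and UF_Ppr_AF_115294. The lowest adjusted p belonged to UF_Ppr_AF_115147, at 0.00603, with a bound of 3.65-fold in place of 4.72-fold. UF_Ppr_AF_113172 kept a bound of 11.4-fold (limma adjusted p = 0.0381) and UF_Ppr_AF_109140 a log2 difference of 2.49 (SE 0.26, limma adjusted p = 0.0381). The 9th was UF_Ppr_AF_110309, which was not detected after wastewater and whose stormwater mean lay below the mean of the weakest signals detected on the wastewater arrays, so that no ratio can be given. Of the 9, all but UF_Ppr_AF_109140 were detected in no wastewater liver and entered the test through the stormwater arrays alone. Their direction is therefore not independent of the filter. The other 10 of the 18 had limma adjusted p up to 0.130, and the log2 differences of the 18 ran from 2.03 to 5.16.

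The array had its greatest weight among bright probes. Including it moved 379 log2 differences by over 1, and 356 of these moved toward lower values after stormwater. Of the 1074 probes in the brightest decile, 174 (16.2%) moved that way, and the median difference of that decile was -0.33 with the array and -0.13 without it. Probes 2-fold or more lower after stormwater numbered 801 with the array (7.46%) and 337 without it (3.14%), and those 2-fold or more higher 851 (7.93%) and 579 (5.39%). The waters did not overlap in 483 higher (4.5%) and 355 lower probes (3.31%) when it was left out.

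**Figure D5:**
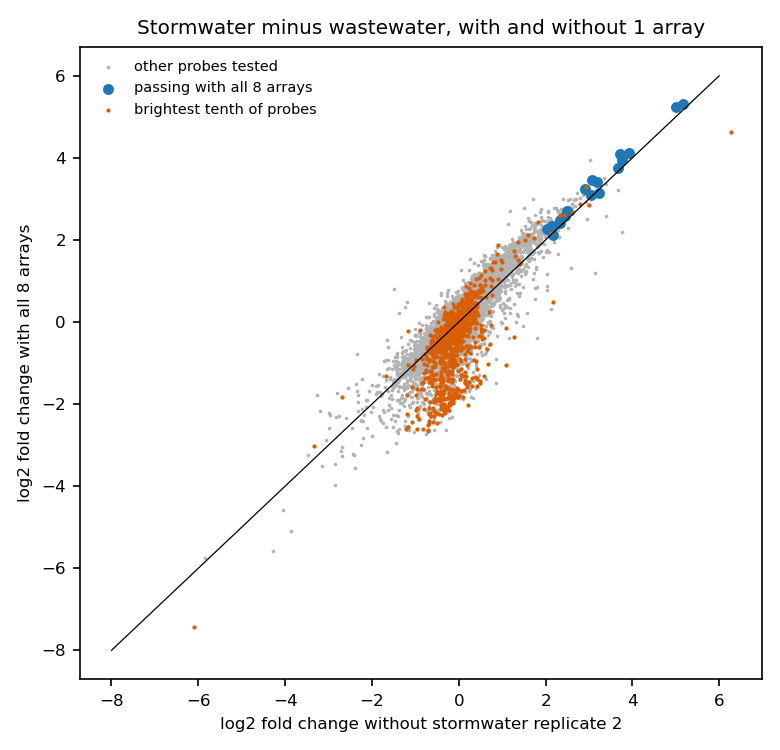
Log2 difference, stormwater minus wastewater, with all 8 arrays (vertical axis) against the same without stormwater replicate 2 (horizontal axis), with the 18 passing probes in blue, the brightest decile of the probes in orange and the line of equality in black. The blue points stay near the line, while many orange points fall below it.

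Probes from contigs with the same number did not share the differences. The identifiers of 2 passing probes, UF_Ppr_AF_113172 and UF_Ppr_AF_113407, have contig numbers that other tested probes also carry, 3 probes in all. The partner of UF_Ppr_AF_113172, UF_Ppr_AF_113775, was detected on all 8 arrays and differed by -0.27 (SE 0.36, limma adjusted p = 0.813). The partners of UF_Ppr_AF_113407, UF_Ppr_AF_118603 and UF_Ppr_AF_104734, differed by -0.39 (SE 0.35, limma adjusted p = 0.740) and 0.60 (SE 0.86, limma adjusted p = 0.827). The meaning of a shared contig number is not stated in the labels.

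The largest difference of means over the 10736 probes lay in a probe whose groups overlapped. UF_Ppr_AF_119087, chosen after its values were seen, was at 6.67, 7.65, 5.97 and 7.33 in wastewater replicates 1 to 4 and at -1.76, -4.60, -2.56 and 6.75 in stormwater replicates 1 to 4. No control detected it (-5.79, -6.47 and -6.43), and streamwater replicates 1 to 4 were at -5.39, 5.10, -3.32 and -1.67. Stormwater replicate 4 was as bright as the wastewater livers, and the log2 difference of -7.44 had an SE of 2.13 (limma adjusted p = 0.314). Without that liver it was -9.87 and passed (limma adjusted p = 0.0131), the 1 probe that was lower after stormwater in that fit. UF_Ppr_AF_118982 was also high in the same stormwater liver, at 3.21 against -1.07, -5.54 and -3.88 in the other 3 and 2.45 to 3.85 after wastewater, with a log2 difference of -5.09 (SE 1.64, limma adjusted p = 0.416). It was not detected in stormwater replicate 2 (-5.54), so that difference is no measured ratio. Without stormwater replicate 2 UF_Ppr_AF_119087 differed by -6.09 and UF_Ppr_AF_118982 by -3.85 (limma adjusted p = 0.603 and 0.702).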

How the data were processed

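Liver RNA of 8 fathead minnows, 4 held in stormwater and 4 in wastewater, was measured on Agilent arrays in 1 colour (Cy3), with 1000 ng of RNA labelled per the labels' protocols. The deposited scanner files hold spot intensity values from Agilent Feature Extraction, whose version is 10.1.1.1 in the headers of the files and 9.5 in the submitters' processing notes. The column used is the software's processed signal, an intensity that this software corrects for background on each array, and the file headers list no scaling across arrays. Log2 values from the authors' deposited value table correlated at 0.993 to 1.00 with log2 of the processed signal across probes. The table's column medians were 8.38 to 8.59 for these arrays, and the normalization behind it is not stated in the labels. It served as an alternative.

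Per array, log2 of the processed signal was taken relative to its 75th percentile over non-control probes, and spots marked as outliers were set to missing (54 among the probes tested, 0 among those that passed). Probes that 3 or more of the 8 arrays marked as well above background were fitted with limma 3.58.1 in R 4.3.3 (1 mean per water, eBayes, two-sided, 6 residual degrees of freedom), and p-values were adjusted over all of them by the Benjamini-Hochberg method. The fit was tested on simulated data with independent normal noise around each probe's mean and known shifts added. Those data had no detection floor, so that test cannot speak for calls near background. Where no array of a water detected a probe, its ratio is the bright mean over the mean of, per dim array, the weakest signal well above background, or the probe's signal where that is higher. The normexp alternative used the median spot and background signals in place of the processed signal, with an offset of 50 intensity units added before scaling. Array measures were compared by exact permutation of the 8 arrays. Groups came from the sample titles. Same-numbered livers of the waters deviated together (r = 0.129, 0.168, 0.188 and 0.177 across probes). Livers of different number on the same slide did so too (r = 0.308, 0.076, 0.494 and 0.148), and r was negative for pairs across slides (-0.423 to -0.024). These values follow the slide and do not show a pairing by number, and the replicate number was fitted as a block only as an alternative. Numbers 1 and 2 lie on slide 1 and 3 and 4 on slide 2, and replicates 1 and 3 of stormwater and 2 and 4 of wastewater correlated best with another number than their own.

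Named probes follow a rule: the 12 passing probes of lowest p, the 6 non-overlapping lower probes of lowest p, the 5 largest bounds, the 5 largest differences in each direction among probes detected on all 8 arrays, those passing with and without stormwater replicate 2, and the 5 brightest. The members, lists and rule were chosen with earlier results of these data known. The gene lists and cell type markers were not used, since the probes have no gene names. Figures were drawn with matplotlib 3.10.9.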

Additional observations from a re-analysis of the deposited data

Results flagged for a closer look

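Of 86 groups of 4 livers tested, those of the named probes and of both array measures, 10 had 1 liver that stood apart from the other 3 by Dixon's ratio (gap over range). Chance flags about 1 in 20 of unselected groups. The named probes were picked from the same 8 arrays by their values, so that rate does not apply to them. Of the 10 flagged, 8 were stormwater groups, and in each it was stormwater replicate 2 that stood apart. It was higher than the others on UF_Ppr_AF_115294 (ratio 0.866) and UF_Ppr_AF_117690 (0.920). It was lower on UF_Ppr_AF_102669 (0.883), UF_Ppr_AF_101246 (0.874), UF_Ppr_AF_103403 (0.839), UF_Ppr_AF_117718 (0.867), UF_Ppr_AF_102718 (0.925) and UF_Ppr_AF_116431 (0.872). The other 2 were wastewater groups, with wastewater replicate 3 lower on UF_Ppr_AF_105833 (0.844) and wastewater replicate 4 higher on UF_Ppr_AF_112116 (0.926). Leaving out wastewater replicate 4 changes the call of UF_Ppr_AF_112116, as it does for all 18 passing probes.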

How the results depend on the processing

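The 18 passing probes became 0 with the normexp background, among the probes detected on all 8 arrays, within slide 1, within slide 2, with the replicate block, with all 15 arrays in one fit and without stormwater replicate 2 and streamwater replicate 4 in that fit. The count was 10 without a filter on dim probes, 5 with trend and robust variances, 4 with slide as a block and without stormwater replicate 2, and 46 with array weights (44 higher and 2 lower, UF_Ppr_AF_116095 and UF_Ppr_AF_112838). Leaving out 1 array gave 0 to 14 passing probes, among them 1 lower without stormwater replicate 4 (UF_Ppr_AF_119087) and 1 without wastewater replicate 2 (UF_Ppr_AF_108364). The count stood at 8 without stormwater replicate 1, 6 without stormwater replicate 3, 7 without stormwater replicate 4 and 7 without wastewater replicate 2. The normexp background turned the sign of UF_Ppr_AF_115294 (-0.07) and UF_Ppr_AF_112116 (-0.31). With the authors' values UF_Ppr_AF_103403 was at 0.11, UF_Ppr_AF_117718 at 0.17, UF_Ppr_AF_109733 at 0.21 and UF_Ppr_AF_116431 at 0.12, and quantile normalization put UF_Ppr_AF_109733 at 0.03. Probes at an unadjusted p under 0.05 numbered 881, with 2299 under the normexp background, 390 within slide 2 and 647 to 1031 when 1 array was left out. Without a filter they numbered 2339 (666 higher, 1673 lower), over all 15208 non-control probes. Non-overlapping probes numbered 690, and 1245 under the normexp background (304 higher, 941 lower). The median log2 difference was -0.32 with the normexp background and -0.04 with the authors' values and with the median as centre. The difference in detected share, 8.52 percentage points, ran from 6.10 to 10.4 when 1 array was left out, and without stormwater replicate 1 it reached the smallest exact permutation p of that design (0.0286). Probes detected on all arrays of stormwater and none of wastewater numbered 72 to 202 when 1 array was left out (202 without stormwater replicate 1, 144 without stormwater replicate 3, 119 without wastewater replicate 1, 104 without wastewater replicate 2), and the reverse count was 0 or 1 (UF_Ppr_AF_110388, UF_Ppr_AF_115270, UF_Ppr_AF_114651 or UF_Ppr_AF_104284). Apart from fits of fewer arrays or probes, the cause of these moves was not tested. Weak signal over background limits 14 of the 18 ratios to bounds.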
